A study of Mus musculus with 30 samples.

Results

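Formins are the actin nucleators that build long unbranched filaments, and the accessibility of chromatin at 10 formin genes was measured by ATAC-seq in mouse cells in which actin assembly had been inhibited. The genes were the Diaphanous formins Diaph1 and Diaph3, the founding formins Fmn1 and Fmn2, Fhod1 and Fhod3, Daam1 and Daam2, Inf2 and Fmnl2. A window, meaning a consensus ATAC-seq region in which reads had been counted, was assigned to a formin when the nearest protein-coding transcription start site (TSS) within 50000 bp was that of the gene, or when the window lay inside its gene body (GRCm38, GENCODE vM21). This gave 655 of the 305931 windows counted at 24 h and 700 of the 369846 windows counted at 4 h, from 8 windows at Fhod1 to 141 at Fmn1 in the 24 h table. The membership rule used position only and no measured value.

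The libraries came from mesenchymal stem cells (MSCs) of C57BL/6J bone marrow and from NIH 3T3 cells, an embryonic fibroblast line, and each group held 3 libraries. MSCs were compared at 24 h without treatment, with CK666, which inhibits the Arp2/3 complex and so the branching of actin, or with cytochalasin D (CytoD), which blocks actin polymerization and raises actin inside the nucleus. At 4 h, untreated and CK666-treated libraries were compared in MSCs and in NIH 3T3 cells. The MSCs are a primary line pooled from 6 male mice, and nothing in the labels says that replicates were separate cultures, so p-values measure the spread between these libraries, which may be technical. As ATAC-seq was done on whole cultures, fewer cells with an open site and less cutting of that site per cell cannot be told apart.

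Formins nucleate and elongate filaments at their growing ends and take actin from its complex with profilin. Most are held inactive by contact between their own ends and are released by small GTPases, while the Arp2/3 complex makes branched networks from the same pool of actin monomers. In mesenchymal cells the filaments built by formins form stress fibers and filopodia, and Diaphanous formins also assemble actin inside the nucleus.

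Total counts per library ranged from 14071301 to 22352180 at 24 h, from 29239381 to 34979833 in MSCs at 4 h and from 14496058 to 27866363 in NIH 3T3 cells, where CK666 replicate 1 was the shallowest. The formin windows were of ordinary depth, with a median of 25.0 normalized counts at 24 h against 21.98 over all tested windows. Of 8 stromal markers, 6 had a window at the TSS at 24 h and 7 at 4 h. Eng had none at either time, and Thy1 had none at 24 h and a mean of 0.67 normalized counts in control MSCs at 4 h, against 70.1 in control NIH 3T3 cells. Their summed normalized counts at 24 h were 2310 to 2576 in control, 2155 to 2267 with CK666 and 2000.1 to 2128 with CytoD, so that neither treated group overlapped with control. At 4 h they were 3489 to 3729 in control MSCs, 3381 to 3783 with CK666, and 3136 to 3547 and 2651 to 3388 in NIH 3T3 cells. The sum over 4 marrow stroma markers in NIH 3T3 cells was 1938 to 2205 in control and 1441 to 1581 with CK666, and in MSCs at 4 h it was 2667 to 2767 and 2580 to 2770. In NIH 3T3 cells Ebf3 had a mean of 1458 in control and 920 with CK666. The other means there were 174 and 158 (Cxcl12), 43.3 and 58.3 (Lepr), and 367 and 366 (Foxc1). Haematopoietic and macrophage markers summed to between 36.5 and 99.2 normalized counts at 24 h and to between 95.6 and 217 at 4 h, and of these 6 markers Ptprc, Spi1, Itgam and Laptm5 had no TSS window. At 24 h this sum was 46.7 to 72.3 in control, 36.5 to 52.3 with CK666 and 68.0 to 99.2 with CytoD. The markers that had a window moved in opposite directions. Mean counts in control, CK666 and CytoD were 42.4, 22.4 and 28.8 for Csf1r, and 15.7, 23.4 and 49.8 for Adgre1. The part of these marker differences in the results was not tested.

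The sequences of 6 windows and 1 promoter are given here because the results turn on them. All are read from GRCm38 on the plus strand and are the central 300 bases of a window, and capitals mark matches on either strand to the binding motifs of TEAD (GGAATG), AP-1 (TGANTCA), RUNX (TGTGGT), C/EBP (TTNNGCAA) and SRF (the CArG box), with overlapping matches capitalized together. The first is the Fmn2 intron that lost most with CytoD, the second its neighbor that lost with CK666 at 4 h, and the third an Fmn2 intron that gained with CytoD. The fourth is an Fmn1 intron that lost with both inhibitors, the fifth a Daam1 intron that gained with CK666, and the sixth an Fmnl2 intron that lost with both inhibitors.
Fmn2 intron, chr1:174641004-174641303: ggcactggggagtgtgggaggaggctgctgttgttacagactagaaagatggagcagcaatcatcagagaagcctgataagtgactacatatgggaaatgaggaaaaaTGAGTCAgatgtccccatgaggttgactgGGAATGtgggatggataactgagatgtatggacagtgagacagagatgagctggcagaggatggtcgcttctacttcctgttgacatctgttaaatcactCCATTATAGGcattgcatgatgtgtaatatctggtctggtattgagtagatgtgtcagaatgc
Fmn2 neighbor, chr1:174642402-174642701: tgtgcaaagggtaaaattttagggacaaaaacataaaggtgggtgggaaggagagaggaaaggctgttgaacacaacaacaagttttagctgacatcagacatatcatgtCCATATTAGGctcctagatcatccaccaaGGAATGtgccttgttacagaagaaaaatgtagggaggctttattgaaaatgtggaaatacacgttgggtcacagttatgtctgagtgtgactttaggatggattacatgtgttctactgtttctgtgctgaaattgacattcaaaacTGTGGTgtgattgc
Fmn2 gained intron, chr1:174748521-174748820: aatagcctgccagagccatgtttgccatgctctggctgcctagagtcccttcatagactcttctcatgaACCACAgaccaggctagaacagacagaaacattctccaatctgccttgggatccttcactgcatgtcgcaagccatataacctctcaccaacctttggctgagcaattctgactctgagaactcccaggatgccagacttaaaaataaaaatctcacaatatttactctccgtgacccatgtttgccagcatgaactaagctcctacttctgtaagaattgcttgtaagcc
Fmn1 intron, chr2:113456670-113456969: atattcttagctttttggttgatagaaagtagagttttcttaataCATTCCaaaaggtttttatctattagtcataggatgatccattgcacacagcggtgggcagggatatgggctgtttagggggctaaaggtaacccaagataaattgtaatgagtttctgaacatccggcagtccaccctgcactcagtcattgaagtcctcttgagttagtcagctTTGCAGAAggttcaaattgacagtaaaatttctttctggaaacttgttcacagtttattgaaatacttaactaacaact
Daam1 intron, chr12:71903254-71903553: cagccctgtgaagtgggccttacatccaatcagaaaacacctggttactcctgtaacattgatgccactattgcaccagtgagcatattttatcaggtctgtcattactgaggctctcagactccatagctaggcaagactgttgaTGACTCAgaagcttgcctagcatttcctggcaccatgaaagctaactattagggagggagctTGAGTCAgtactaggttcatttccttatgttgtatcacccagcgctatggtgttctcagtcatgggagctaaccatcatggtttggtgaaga
Fmnl2 intron, chr2:52952267-52952566: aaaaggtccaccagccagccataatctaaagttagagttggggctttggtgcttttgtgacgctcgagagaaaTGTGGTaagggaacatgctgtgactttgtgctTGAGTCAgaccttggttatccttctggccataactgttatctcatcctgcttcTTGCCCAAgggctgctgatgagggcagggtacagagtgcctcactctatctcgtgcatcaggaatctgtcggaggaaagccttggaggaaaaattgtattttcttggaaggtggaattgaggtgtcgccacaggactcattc
Fmn1 promoter, chr2:113327486-113327785: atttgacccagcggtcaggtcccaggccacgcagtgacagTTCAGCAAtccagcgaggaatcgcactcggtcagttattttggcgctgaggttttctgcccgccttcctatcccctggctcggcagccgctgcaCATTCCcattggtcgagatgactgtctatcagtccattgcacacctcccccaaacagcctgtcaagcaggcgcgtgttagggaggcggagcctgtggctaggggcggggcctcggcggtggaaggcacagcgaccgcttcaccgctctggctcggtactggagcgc
The promoter is the RefSeq sequence of GRCm38.p6, from 250 bases before to 50 bases after the start of Fmn1, and is shown because the start of Fmn1 was open in MSCs and nearly closed in NIH 3T3 cells. A RefSeq promoter was found for 8 of the 10 formins.

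No formin start passed the limits for a call in any treated against control comparison. At 24 h each gene had a tested window over its most 5′ TSS, and the log2 fold changes of these 10 windows ran from -0.35 to 0.25 with CK666 and from -0.27 to 0.20 with CytoD. Windows were tested by the quasi-likelihood method of edgeR, with p adjusted over all windows (Benjamini-Hochberg). A called window had a log2 fold change beyond 1 together with an adjusted p under 0.01, and a window was said to pass at an adjusted p under 0.01 whatever its fold change. Of the 14 tested formin windows that hold a TSS, edgeR and DESeq2 each called 0 with CK666 and 0 with CytoD, while in edgeR 0.773% and 0.444% of all TSS windows were called and 4.36% and 5.27% passed. At an unadjusted p under 0.05, 4 of the 14 were higher with CK666 and 3 lower with CytoD. Of these 1 passed with CytoD, that of Diaph3, at a log2 fold change of -0.27 (edgeR adjusted p = 0.00644). Set directly against CytoD, CK666 left the starts of Daam1 and Fhod1 more accessible, by 0.32 and 0.40 on the log2 scale (edgeR adjusted p = 0.000896 and 0.000579). In this contrast 3 of the 14 windows passed, against 9.95% of all TSS windows, and both tools called 0 of them, against 0.689% in edgeR, with 9 under an unadjusted p of 0.05. At 4 h the starts again stayed within the fold limit, with log2 fold changes from -0.60 to 0.08 in MSCs, and from -0.35 to 0.55 at the 9 starts tested in NIH 3T3 cells. Both tools called 0 of 15 TSS windows in MSCs and 0 of 14 in NIH 3T3 cells, with 2 and 5 under an unadjusted p of 0.05. In MSCs 0 passed by either tool, and in NIH 3T3 cells 1 passed, an internal TSS of Fmn1 at chr2:113439651-113441092 (log2 fold change -0.50, edgeR adjusted p = 0.00371). Over all TSS windows, 0.263% were called and 5.41% passed in MSCs at 4 h, and 1.5% and 7.64% in NIH 3T3 cells.

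Called windows at 24 h lay mostly in introns, as did 543 of the 650 tested formin windows. Introns held 17 of the 18 windows called with CK666 and 19 of the 20 called with CytoD. With CK666 at 24 h, 12 of 650 tested formin windows gained and 6 lost accessibility, or 1.85% and 0.923%, close to the 1.88% and 1.05% of all windows called in these directions. With CytoD at 24 h, 7 gained and 13 lost, or 1.08% and 2%, against 0.98% and 1.4% of all windows. The CK666 and CytoD comparisons share their 3 control libraries. Without CK666 replicate 1, 10 formin windows were called lower with CK666, and without CytoD replicate 2, 4 were called higher with CytoD. By adjusted p alone, 19 formin windows were higher and 33 lower with CK666, against 3.02% and 2.9% of all windows, and 14 were higher and 40 lower with CytoD, against 1.7% and 3.99%. These counts are 2.92% and 5.08% of the tested formin windows with CK666, and 2.15% and 6.15% with CytoD. The median log2 fold change over the formin windows was -0.01 with CK666 and 0.02 with CytoD, beside 0.02 and 0.04 over all windows. With libraries scaled by their total counts, the median over all windows under CytoD moved to 0.12 and the called formin windows to 9 gains and 9 losses. CK666 set against CytoD called 10 formin windows as higher with CK666 and 12 as higher with CytoD. These were 1.54% and 1.85%, against 2.15% and 1.13% of all windows. In the same directions 34 and 28 passed, or 5.23% and 4.31%, against 4.82% and 2.26%.

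At 4 h more formin windows were called lower than higher in both cell types, in NIH 3T3 cells only under some of the scalings. In MSCs CK666 raised 1 and lowered 7 of 647 tested windows, or 0.155% and 1.08%, against 0.589% and 0.428% of all windows. There 12 passed as higher and 27 as lower, or 1.85% and 4.17%, against 1.95% and 2.16%. In NIH 3T3 cells 5 windows gained and 16 lost of 602 tested, or 0.831% and 2.66%, against 1.88% and 1.67% of all windows. By DESeq2, 3174 of all windows were called higher and 4827 lower with CK666 in NIH 3T3 cells. The paper, using the same method, reports the opposite balance there, with more regions increased than decreased. Its count of increased regions was 4827, which is the count of windows called lower here. For CK666 in MSCs, DESeq2 gave the paper's own counts, 4476 higher and 2995 lower at 24 h, and 1098 and 864 at 4 h. Directions in NIH 3T3 cells and in the interaction follow the library labels, and the cause of this conflict was not tested. Without control replicate 3, 4 were called lower in MSCs, and without CK666 replicate 3 or control replicate 3, 2 were called higher. The NIH 3T3 gains numbered 3 without CK666 replicate 2 or control replicate 1. By adjusted p alone 6 were higher and 50 lower in NIH 3T3 cells, or 0.997% and 8.31%, against 2.51% and 4.34%. The median log2 fold change of the formin windows was -0.07 in MSCs and -0.14 in NIH 3T3 cells, beside 0.00 and 0.04 over all windows. With NIH 3T3 libraries scaled by their total counts, the median over all windows moved to 0.14 and the called formin windows to 9 gains and 8 losses, and with a GC trend removed they were 8 and 7. Introns held 5 of the 8 windows called in MSCs and 18 of the 21 in NIH 3T3 cells. Of the tested formin windows, 541 of 647 and 487 of 602 lay in introns.

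Fmn2, which positions the meiotic spindle in oocytes and is also found in neurons and fibroblasts, held the formin window with the largest loss under CytoD. This intronic window, chr1:174640881-174641426, had 905, 987 and 1057 normalized counts in the control libraries, 740.2, 677 and 641 with CK666 and 289, 279 and 275 with CytoD. The 3 groups did not overlap, and each CytoD library lay below every CK666 library. The log2 fold change was -1.81 ± 0.09 (SE, edgeR adjusted p = 1.1e-27) with CytoD, and -0.52 (edgeR adjusted p = 9.4e-07) with CK666. About 1 kb away, the window chr1:174642273-174642842 also passed as lower with both inhibitors, with log2 fold changes of -0.93 (edgeR adjusted p = 0.00104) for CK666 and -0.94 (edgeR adjusted p = 0.00138) for CytoD, just short of the fold limit. The next window, chr1:174643340-174643891, went the other way with CK666, from 66.2, 52.9 and 69.6 normalized counts in control to 138, 120.0 and 161, a log2 fold change of 1.15 (edgeR adjusted p = 2.77e-06), and read 45.8, 72.8 and 52.1 with CytoD. Neighboring windows thus moved in opposite directions in the same CK666 libraries.

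Farther into Fmn2, chr1:174748405-174748936 gained with CytoD. It had 112, 118 and 116 normalized counts in control, 133, 132 and 138 with CK666 and 355, 345 and 313 with CytoD, a log2 fold change of 1.54 ± 0.13 (SE, edgeR adjusted p = 5.86e-16). The CytoD libraries lay apart from the other 6, which were close together. A few kilobases upstream, chr1:174742745-174743267 rose as well with CytoD, with a log2 fold change of 1.18 (edgeR adjusted p = 2.24e-05). At 4 h the same DNA, chr1:174748400-174749098, passed as higher in CK666-treated MSCs without reaching the fold limit (log2 fold change 0.98, edgeR adjusted p = 5.59e-06).

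After 4 h of CK666 the Fmn2 window that lost in MSCs was the neighbor of the strong site, chr1:174642283-174642819. Its normalized counts were 272, 255 and 248 in control MSCs and 120.3, 110.5 and 119 with CK666, a log2 fold change of -1.15 ± 0.13 (SE, edgeR adjusted p = 5.11e-11). NIH 3T3 cells showed a smaller fall at the same window, from 319, 258 and 293 to 171, 204 and 183, which passed without being called (log2 fold change -0.64, edgeR adjusted p = 0.00101). Neither cell type had overlapping groups there. The strong site itself passed as lower at 4 h within the fold limit, with log2 fold changes of -0.23 (edgeR adjusted p = 0.00057) in MSCs and -0.44 (edgeR adjusted p = 0.00744) in NIH 3T3 cells. All 4 Fmn2 windows called in NIH 3T3 cells were lower.

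**Figure D1:**
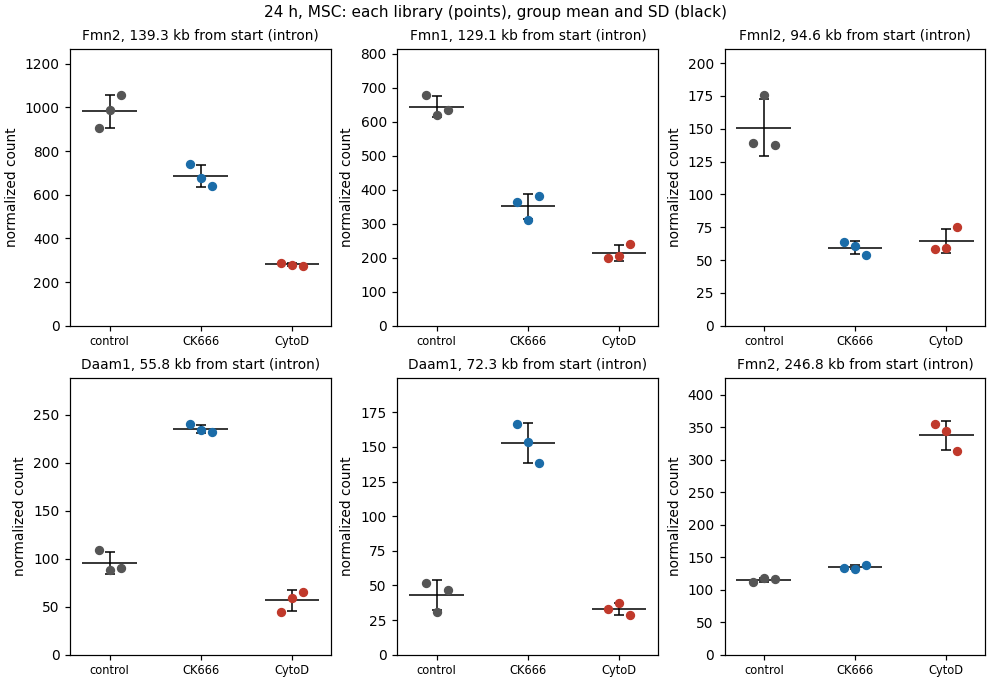
Normalized counts per library in 6 formin windows of MSCs at 24 h, in control, CK666 and CytoD libraries. Points are libraries, the line is the mean and the bar the SD of 3 libraries. The Fmn2 window with the largest loss under CytoD falls stepwise from 905 to 1057 in control to 275 to 289 with CytoD, while both Daam1 windows are highest with CK666.

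Fmn1, a formin of limb and kidney development that also acts at cell junctions, had an intronic site that passed as lower with both inhibitors. It was called with CytoD only. In chr2:113456557-113457081 the normalized counts were 679, 622 and 634 in control, 363, 311 and 382 with CK666 and 198, 204 and 240.4 with CytoD. The 3 groups were fully separated, with log2 fold changes of -1.58 ± 0.10 (SE, edgeR adjusted p = 1.97e-21) for CytoD and -0.87 (edgeR adjusted p = 1.69e-11) for CK666. The overlapping window at 4 h also fell, with log2 fold changes of -0.47 (edgeR adjusted p = 3.22e-09) in MSCs and -0.45 (edgeR adjusted p = 0.0088) in NIH 3T3 cells, in both cases within the fold limit. Another intron, chr2:113376149-113376695, had 222, 219 and 203 normalized counts in control, 152, 145 and 156 with CK666 and 85.2, 88.6 and 86.8 with CytoD. It was called lower with CytoD (log2 fold change -1.30 ± 0.15 SE, edgeR adjusted p = 1.09e-10) and passed as lower within the fold limit with CK666 (log2 fold change -0.51, edgeR adjusted p = 0.00676), again without overlap of the groups. Toward the end of Fmn1, chr2:113618789-113619831 had 103, 90.4 and 72.3 normalized counts in control, 60.8, 65.2 and 97.7 with CK666 and 169, 227 and 166 with CytoD (log2 fold change 1.09, edgeR adjusted p = 1.2e-06). The TSS nearest to this window was that of Grem1, a secreted BMP antagonist whose regulatory elements are known to lie inside Fmn1. A gain with CytoD in chr2:113433655-113434339 rested on low counts (15.6, 10.2 and 12.5 in control and 22.9, 35.2 and 42.05 with CytoD), and its call held in only 4 of 17 alternative settings, with log2 fold changes from 1.18 to 1.60. It was lost without any 1 control or CK666 library, without CytoD replicate 2 or 3, and with DESeq2.

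The 6 Fmn1 windows called in NIH 3T3 cells were all losses. The largest of these, chr2:113602526-113603035, went from 59.8, 47.6 and 39.6 to 8.90, 10.4 and 13.4 normalized counts, a log2 fold change of -2.12 ± 0.35 (SE, edgeR adjusted p = 4.97e-06). The window chr2:113371411-113372096 fell from 54.7, 56.6 and 49.4 to 14.8, 8.32 and 21.03 (log2 fold change -1.84, edgeR adjusted p = 1.8e-05). Control and CK666 libraries did not overlap at either window. In the joint fit of both cell types, the latter window had 23.4, 12.02 and 20.2 normalized counts in control MSCs and 22.9, 30.4 and 8.98 in CK666-treated MSCs. Another loss, chr2:113637420-113638011, had a log2 fold change of -1.70 (edgeR adjusted p = 0.0024), and this call was lost without control replicate 1 and without CK666 replicate 2 or 3, and with DESeq2 (range -2.74 to -1.31). Called losses in MSCs at 4 h numbered 2, and the 1 in a coding exon, chr2:113583980-113584517, was lost without control replicate 2 or 3 and without CK666 replicate 1 or 2, with no filter on low counts and with DESeq2 (log2 fold change -1.34, edgeR adjusted p = 0.00802, range -1.70 to -1.08).

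Daam1, which links Wnt and Dishevelled signaling to actin, was the formin with called gains under CK666 in both cell types, at different windows and times. At 24 h, chr12:71886297-71887467 had 109, 88.7 and 90.1 normalized counts in control MSCs, 241, 234 and 232 with CK666 and 44.5, 59.5 and 65.8 with CytoD. Its log2 fold change was 1.31 ± 0.15 (SE, edgeR adjusted p = 1.2e-10) with CK666, and it passed as lower with CytoD (log2 fold change -0.73, edgeR adjusted p = 0.0031). A similar pattern was seen in chr12:71903119-71903687, with 51.9, 30.7 and 46.4 in control, 167, 154 and 138 with CK666 and 33.1, 37.6 and 28.3 with CytoD, a log2 fold change of 1.85 ± 0.20 (SE, edgeR adjusted p = 1.79e-11) for CK666. At both windows every CK666 library lay above every other library, and CK666 exceeded CytoD by 2.04 and 2.22 on the log2 scale (edgeR adjusted p = 4.33e-17 and 1.33e-13). The gain with the largest fold, at chr12:71954193-71954694, rested on low counts, from 2.60, 3.41 and 7.14 in control to 29.01, 25.2 and 32.6 with CK666 (log2 fold change 2.64, edgeR adjusted p = 0.000177). CytoD raised chr12:71839904-71840982 from 35.05, 27.3 and 34.8 to 104, 65.5 and 71.3 normalized counts (log2 fold change 1.31, edgeR adjusted p = 0.000142), and the call was lost without CytoD replicate 1, where the log2 fold change was 1.07. It lowered chr12:71899493-71900112 (log2 fold change -1.40, edgeR adjusted p = 0.00766), a call that was lost without CytoD replicate 1 or 2 or control replicate 2 or 3, with total-count scaling, after removal of the GC trend, with DESeq2 and with only the 2 groups in the fit (range -2.20 to -1.10).

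In NIH 3T3 cells at 4 h, 4 Daam1 windows were called with CK666, all of them gains. The best covered, chr12:71987105-71987625 near the end of the gene, rose from 111, 138 and 126 to 234, 326 and 273 normalized counts, a log2 fold change of 1.15 ± 0.15 (SE, edgeR adjusted p = 2.76e-08), which was 0.99 and not called without CK666 replicate 2. In MSCs at 4 h the window was not called, with 975, 926 and 834 in control and 819, 831 and 824 with CK666 in the joint fit. Gains from low counts were seen in a coding exon window, chr12:71915572-71916087, from 7.09, 9.03 and 5.39 to 44.5, 32.2 and 24.8 (log2 fold change 2.19, edgeR adjusted p = 0.000177), and in chr12:71927103-71927683, from 4.05, 6.57 and 12.6 to 40.05, 38.5 and 30.6 (log2 fold change 2.19, edgeR adjusted p = 9.19e-05). The libraries of the groups did not overlap at any of these 3 windows. The fourth, chr12:71905567-71906581, had a log2 fold change of 1.11 (edgeR adjusted p = 0.00202), and was not called without CK666 replicate 2 or control replicate 1 or 3, or with DESeq2 (range 0.99 to 1.22). In MSCs at 4 h the called Daam1 windows were 2 losses upstream of the gene. The nearer, chr12:71819975-71820590, went from 107, 102 and 81.4 to 35.8, 41.5 and 51.7 normalized counts (log2 fold change -1.17, edgeR adjusted p = 3.21e-05).

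Daam2, the paralog of Daam1 with a role in canonical Wnt signaling, had few called windows. In MSCs at 4 h, chr17:49530157-49530684 fell from 140.1, 152 and 154 to 77.6, 72.5 and 66.1 normalized counts with CK666, a log2 fold change of -1.04 ± 0.17 (SE, edgeR adjusted p = 1.99e-06). At 24 h, chr17:49501555-49502545 was called higher with both inhibitors, from 0, 3.41 and 7.14 in control to 16.8, 18.3 and 21.7 with CK666 and 21.6, 25.5 and 17.4 with CytoD, at very low counts. The 3 Daam2 windows that passed in NIH 3T3 cells were lower, within the fold limit.

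**Figure D2:**
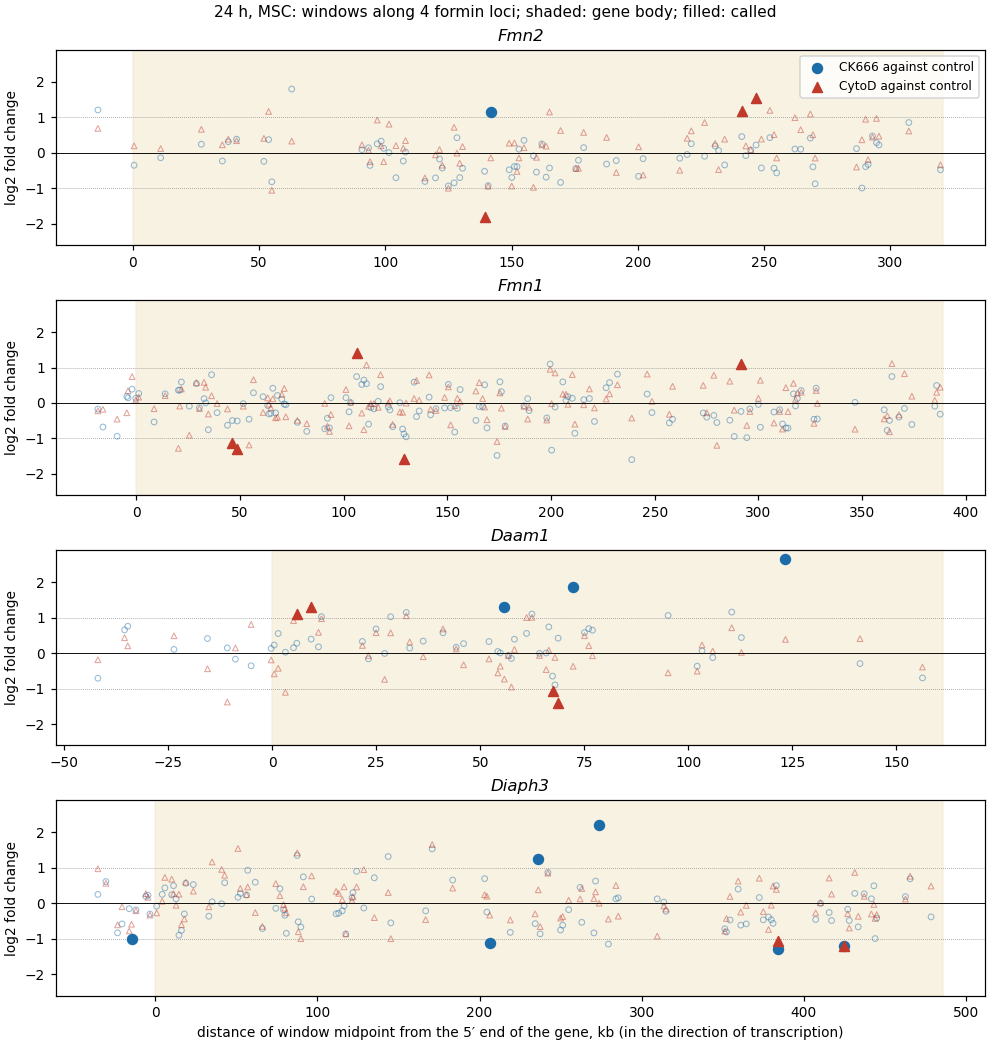
Log2 fold change of each tested window of MSCs at 24 h against its distance in kb from the 5′ end of Fmn2, Fmn1, Daam1 and Diaph3, with the gene body shaded. Circles are CK666 and triangles CytoD, each against control, and filled symbols are called windows. No filled symbol lies at the start of a gene.

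Diaph3, a formin needed for filopodia and for division of the cell body, held the single formin window called lower in MSCs at both times. At 24 h, chr14:86716352-86716944 had 49.3, 51.2 and 71.4 normalized counts in control, 29.9, 33.04 and 11.8 with CK666 and 31.8, 26.7 and 17.4 with CytoD. The log2 fold changes were -1.19 (edgeR adjusted p = 0.00363) and -1.21 (edgeR adjusted p = 0.00455), and the CK666 call was lost without CK666 replicate 3 or control replicate 3 and with DESeq2 (range -1.47 to -0.89). At 4 h the overlapping window chr14:86716395-86717014 fell from 148, 132 and 146 to 59.7, 61.9 and 89.02 (log2 fold change -1.01 ± 0.17 SE, edgeR adjusted p = 1.04e-05), so close to the fold limit that 4 of 6 left-out libraries (control replicates 1 and 3, CK666 replicates 1 and 2), total-count scaling and GC correction ended the call (range -1.22 to -0.92). Treated and control libraries did not overlap at either time, while the CK666 and CytoD libraries overlapped each other. A second Diaph3 intron, chr14:86757042-86757649, also fell with both inhibitors, from 49.3, 57.98 and 71.4 to 29.9, 19.1 and 24.7 with CK666 and 26.7, 37.6 and 22.9 with CytoD (log2 fold change -1.29, edgeR adjusted p = 0.000699 for CK666, not called without CK666 replicate 2 or control replicate 3). The intron chr14:86867206-86867760 gained with CK666, from 10.4, 5.12 and 15.2 to 46.8, 35.7 and 59.2 (log2 fold change 2.20, edgeR adjusted p = 1.42e-05). All 3 Diaph3 windows called in NIH 3T3 cells were lower.

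Diaph1, a formin of stress fibers, had called windows under CytoD at 24 h, and both were losses. Of these, chr18:37855923-37857034, in a coding exon near the end of the gene, had 398, 419 and 370.4 normalized counts in control, 282, 304 and 280.1 with CK666 and 206, 197 and 176 with CytoD. The CytoD libraries were the lowest of the 3 groups without overlap (log2 fold change -1.04 ± 0.11 SE, edgeR adjusted p = 1.19e-11). The nearest TSS to this window belongs to Pcdhgc5, a protocadherin of the neighboring cluster.

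Fmnl2, a formin of lamellipodia and cell migration that Cdc42 activates, lost with both inhibitors at chr2:52952128-52952705. Normalized counts were 139, 176 and 137 in control, 63.6, 60.9 and 54.3 with CK666 and 58.5, 59.5 and 74.96 with CytoD. Both treated groups lay below the controls and overlapped each other, with log2 fold changes of -1.34 ± 0.18 (SE, edgeR adjusted p = 1.81e-08) for CK666 and -1.22 (edgeR adjusted p = 4.79e-07) for CytoD. A larger gain with CK666 rested on low counts, at chr2:53058349-53058872, from 7.79, 2.56 and 4.46 to 28.1, 30.4 and 24.7 (log2 fold change 2.54, edgeR adjusted p = 0.000116). Near the gene start, chr2:52861990-52862510 had log2 fold changes of -1.08 (edgeR adjusted p = 7.19e-06) with CK666 and -1.08 (edgeR adjusted p = 1.48e-05) with CytoD. The inhibitors differed at chr2:53031683-53032386, which read 10.3, 10.4 and 11.8 with CK666 and 41.97, 33.99 and 30.2 with CytoD (log2 fold change -1.69, edgeR adjusted p = 0.00097, not called without CytoD replicate 1).

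Fhod3, which organizes actin in the sarcomeres of the heart, had 2 called gains with CK666 and 1 called loss with CytoD in MSCs at 24 h. In chr18:25018709-25019274, an intron, normalized counts were 46.7, 61.4 and 65.2 in control, 125, 120.0 and 155 with CK666 and 20.3, 41.3 and 28.3 with CytoD. No CK666 library overlapped with the others, and the log2 fold change of CK666 against CytoD was 2.15 (edgeR adjusted p = 3.12e-12). A second gain, chr18:24777999-24778612, had a log2 fold change of 1.60 (edgeR adjusted p = 0.00146), and its call was lost without CK666 replicate 2 or control replicate 3 (range 1.21 to 2.20). With CytoD, chr18:24789233-24789805 fell from 32.4, 52.01 and 39.3 to 10.2, 15.8 and 13.7 (log2 fold change -1.64, edgeR adjusted p = 0.000301). In NIH 3T3 cells at 4 h CK666 lowered both Fhod3 windows that it called, while in MSCs at 4 h 0 Fhod3 windows were called. The larger loss, chr18:25062492-25063011, an intron, went from 72.9, 91.1 and 63.8 to 19.3, 30.1 and 25.8 normalized counts (log2 fold change -1.57 ± 0.26 SE, edgeR adjusted p = 5.21e-06), with no overlap of the groups, and it was called under each of 13 alternative settings. Fhod1, which bundles filaments in stress fibers, had the 1 formin window that gained in MSCs at 4 h, chr8:105345509-105346046, an intron. It rose from 66.3, 62.1 and 62.2 to 126, 136 and 134 normalized counts (log2 fold change 1.06 ± 0.18 SE, edgeR adjusted p = 5.7e-06). The same window was not called in NIH 3T3 cells (log2 fold change 0.13, edgeR adjusted p = 0.823), and the overlapping window in MSCs at 24 h passed as higher, with a log2 fold change of 0.39 (edgeR adjusted p = 0.00824). Inf2, which both builds and severs filaments, had 1 called window, a gain in NIH 3T3 cells, at chr12:112571070-112571608 upstream of the gene (log2 fold change 1.02, edgeR adjusted p = 0.00186).

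**Figure D3:**
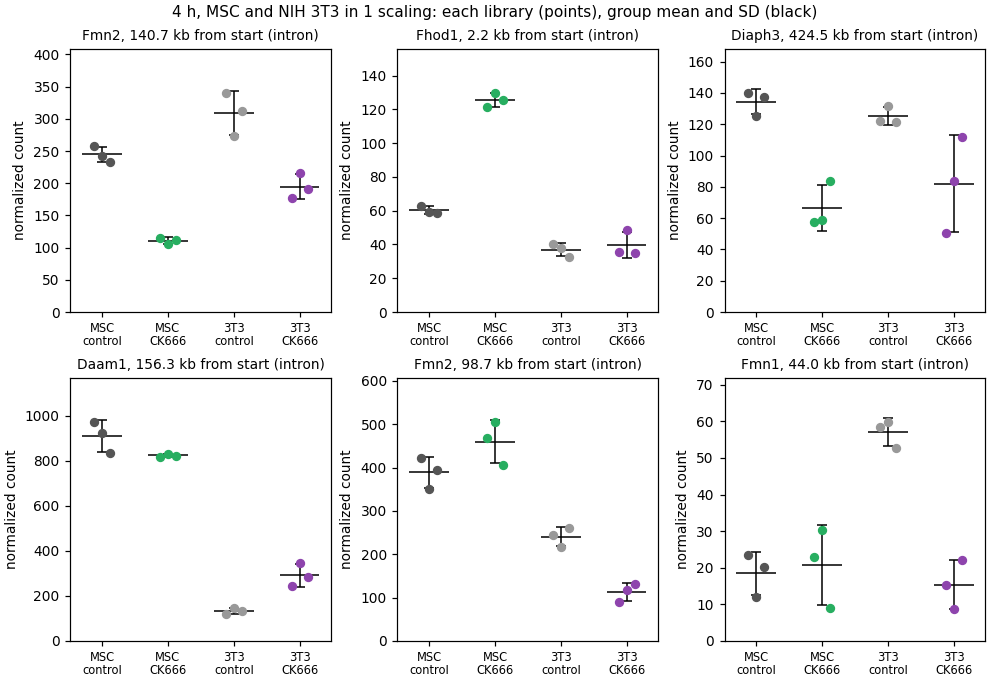
Normalized counts per library in 6 formin windows at 4 h, in control and CK666 libraries of MSCs and NIH 3T3 cells, all scaled in 1 joint fit. Points are libraries, the line is the mean and the bar the SD of 3 libraries. The Fmn2 window chr1:174642283-174642819, in the first panel, is lower with CK666 in both cell types, the Fhod1 window is higher with CK666 in MSCs, and the Daam1 window is higher with CK666 in NIH 3T3 cells.

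The response to CK666 at 4 h was compared between MSCs and NIH 3T3 cells by an interaction term over all 12 libraries. The response differed at 11 of 699 formin windows, and was higher in MSCs at 8 and lower at 3, or 1.14% and 0.429%, against 0.903% and 0.498% of all windows. By adjusted p alone 18 were higher and 3 lower, or 2.58% and 0.429%, against 1.44% and 0.62%. Single libraries moved these calls, and those higher in MSCs numbered 14 without CK666 replicate 2 and 3 without control replicate 3 of NIH 3T3 cells, and 5 without control replicate 1 of NIH 3T3 cells, CK666 replicate 1 or 2 of MSCs, or control replicate 2 or 3 of MSCs. Calls lower in MSCs numbered 5 without control replicate 3 of NIH 3T3 cells, and 1 without control replicate 1 or 2 of NIH 3T3 cells or CK666 replicate 3 of MSCs. In chr1:174599963-174601112, an intron of Fmn2, counts were 421, 349.5 and 395 in control and 468, 506 and 406 in CK666-treated MSCs, and 245, 216 and 261 and 90.6, 118 and 132 in NIH 3T3 cells, a log2 difference of response of 1.30 ± 0.19 (SE, edgeR adjusted p = 1.06e-06). At the Daam1 window chr12:71987105-71987625 described above, the log2 difference was -1.28 ± 0.17 (SE, edgeR adjusted p = 8.64e-08). The sole TSS window among the 11 was that of Fmn2, chr1:174501584-174504148, with 113, 121 and 126 in control and 74.5, 80.9 and 82.6 in CK666-treated MSCs, and 64.9, 58.2 and 69.9 and 107, 96.6 and 76.1 in NIH 3T3 cells (log2 difference of response -1.12 ± 0.27 SE, edgeR adjusted p = 0.0052). That call, 1 of 15 formin TSS windows, was lost with 9 of the 12 libraries left out in turn, all but control replicate 1 of MSCs and CK666 and control replicate 3 of NIH 3T3 cells (range -1.22 to -0.99). Among all TSS windows, 0.787% were called and 2.45% passed in this test.

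Far more formin windows differed between the cell types than with any treatment, in fits of different depth. Between control MSCs and control NIH 3T3 cells, 171 of 699 formin windows were called higher in MSCs and 110 lower, or 24.5% and 15.7%, against 18.3% and 16.2% of all windows. By adjusted p alone the numbers were 211 and 128, or 30.2% and 18.3%, against 22.9% and 18.5%. With scaling by total counts the called windows became 126 higher and 131 lower, and with a GC trend removed 129 and 128, as the median over all windows moved from -0.02 to -0.26 and -0.23. Fhod3 had the largest share, with 48 of 87 windows higher in MSCs and 5 lower, followed by Diaph1 with 14 of 29 higher and 1 lower. Fmnl2 had 29 of 101 windows lower and 10 higher, and Daam2 13 of 46 lower and 3 higher. Gene starts also differed. The window over the start of Fmn1, chr2:113326782-113327919, had 1599, 1575 and 1591 normalized counts in MSCs and 104, 98.98 and 125 in NIH 3T3 cells (log2 fold change 3.86 ± 0.12 SE, edgeR adjusted p = 1.46e-43). The start of Fhod3, chr18:24709137-24709671, had 297, 312 and 266 in MSCs and 10.8, 5.21 and 9.58 in NIH 3T3 cells (log2 fold change 5.11 ± 0.23 SE, edgeR adjusted p = 7.67e-34). With Diaph1 (log2 fold change 1.14, edgeR adjusted p = 2.08e-17), these were the 3 of 15 formin TSS windows called, and 10 passed, against 24% and 54.9% of all TSS windows. The widest gap the other way was inside Fmn2, where chr1:174649089-174649676 had 13.2, 12.02 and 19.2 in MSCs and 1595, 1359 and 1548 in NIH 3T3 cells (log2 fold change -6.65 ± 0.17 SE, edgeR adjusted p = 3.34e-50). Fmn2 also held chr1:174603253-174603862, with 161, 192 and 182 in MSCs and 3.24, 8.68 and 3.83 in NIH 3T3 cells, so that strongly open sites of each cell type lay within 1 gene. The sum of marrow stroma markers also differed between these groups, with TSS counts of 2667 to 2767 in MSCs and 1938 to 2205 in NIH 3T3 cells. Its members did not move together. Means in MSCs and NIH 3T3 cells were 622 and 174 for Cxcl12 and 1720 and 1458 for Ebf3. They were 14.8 and 43.3 for Lepr, and 345 and 367 for Foxc1.

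Per kilobase of window, the starts of control MSCs at 4 h ordered as Diaph3 (1648 ± 50.3 normalized counts per kb, SD, n = 3), Daam1 (1477 ± 8.33) and Fmn1 (1396 ± 10.7) at the top. Inf2 (785 ± 26.6), Fhod1 (778 ± 26.5) and Daam2 (759 ± 73.6) followed and did not differ beyond their spread. Fhod3 (546 ± 44.3) and Diaph1 (496 ± 4.83), whose libraries overlapped, and Fmnl2 (395 ± 8.18) came next, and Fmn2 was by far the lowest at 46.8 ± 2.70. In NIH 3T3 cells Daam1 (1167 ± 128) and Diaph3 (946 ± 93.1) were again highest, while Fmn1 (95.9 ± 11.9), Fmn2 (25.1 ± 2.30) and Fhod3 (15.9 ± 5.50) were nearly closed. The weak start of Fmn2 in MSCs contrasts with its intronic window chr1:174640909-174641433, which reached 2555 ± 129 normalized counts (SD, n = 3) in control MSCs in the joint fit. That value is for the whole window, which is shorter than the window over the start, and is not per kb. Windows over starts differ in length, and the level per kb falls when a window reaches beyond its peak.

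**Figure D4:**
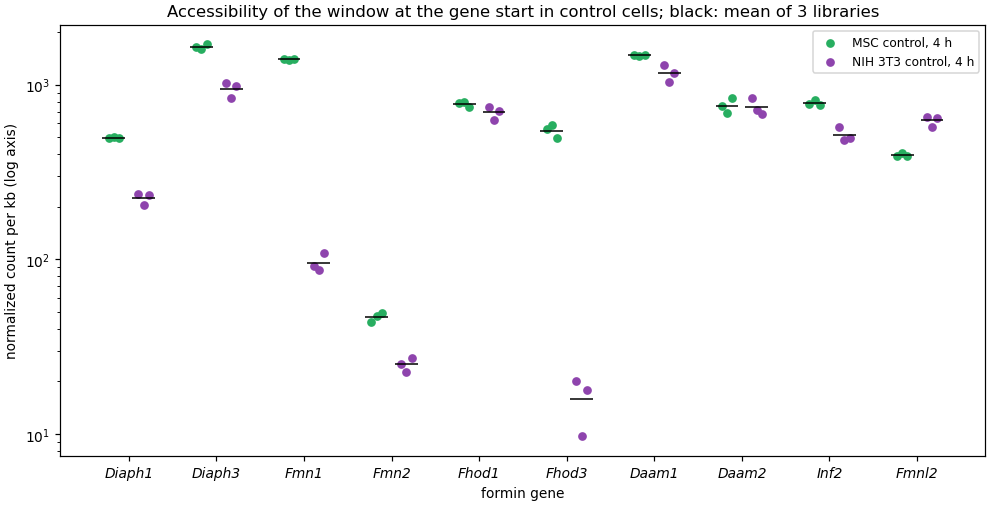
Normalized counts per kb of window over the 5′ TSS of each formin in control MSCs and control NIH 3T3 cells at 4 h, on a log axis. Points are libraries and black lines are means of 3 libraries. Fmn1 and Fhod3 are separated by more than 10-fold between the cell types, while the libraries of Daam2 overlap.

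Summed over all its windows, each formin gave 1 count per library, and these sums changed by little. With CK666 at 24 h, the sums of 3 formins fell and 1 rose of 10 (edgeR adjusted p under 0.01, no fold limit), against 8.46% lower and 6.01% higher of all genes. Fmn2 had 6984, 6998 and 7259 normalized counts in control, 6145, 6072 and 5967 with CK666 and 7038, 7318 and 7047 with CytoD, so that it fell with CK666 (log2 fold change -0.22 ± 0.03 SE, edgeR adjusted p = 8.42e-07). With CytoD its strongest window lost most of its counts, and the sum had a log2 fold change of 0.01, whose sign turned when a GC trend was removed. Daam2 had 2685, 2627 and 2493 in control and 2067, 2176 and 2067 with CK666 (log2 fold change -0.30 ± 0.04 SE, edgeR adjusted p = 8.37e-07), and Fmn1 fell as well (log2 fold change -0.22 ± 0.03 SE, edgeR adjusted p = 7.41e-07). The gain of Daam1 (log2 fold change 0.13, edgeR adjusted p = 0.00578) was lost without control replicate 1 or 3 or CK666 replicate 1 or 2. With CytoD the 2 sums that passed were both lower, Daam1 (log2 fold change -0.13, edgeR adjusted p = 0.00825) and Fhod3 (log2 fold change -0.14, edgeR adjusted p = 0.00936), against 8.17% higher and 10.1% lower of all genes, and neither passed under total-count or RLE scaling, after GC correction, with only the 2 groups in the fit, or without CK666 replicate 1, CytoD replicate 3 or control replicate 2 or 3. CK666 and CytoD differed at 6 sums, with log2 differences for Daam1 (0.26), Fhod1 (0.25) and Inf2 (0.17) all higher with CK666, and for Daam2 (-0.32), Fmn2 (-0.23) and Fmn1 (-0.15) lower, against 10.8% and 10.7% of all genes. Among these, Inf2 no longer passed without CK666 replicate 1 or 2 or CytoD replicate 1 or 3.

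At 4 h the sums that passed fell. In MSCs the 3 that passed were all lower, Fmn1 (log2 fold change -0.19 ± 0.03 SE, edgeR adjusted p = 1.47e-05), Diaph1 (log2 fold change -0.14, edgeR adjusted p = 0.00296) and Diaph3 (log2 fold change -0.13, edgeR adjusted p = 0.00922), against 4.75% higher and 5.34% lower of all genes. Diaph1 was lost with 4 of 6 libraries left out (CK666 replicates 2 and 3, control replicates 1 and 2) and Diaph3 with 5 (all but control replicate 2), and both after GC correction. Diaph3 also failed with total-count scaling and with the replicate block. In NIH 3T3 cells all 5 that passed fell, and over all genes 17% passed as lower and 13.3% as higher. These were Fmn2, with 11402, 10809 and 11328 normalized counts in control and 8686, 9045 and 8969 with CK666 (log2 fold change -0.33 ± 0.04 SE, edgeR adjusted p = 4.32e-07), Fhod3 (-0.32), Fmn1 (-0.31), Diaph1 (-0.24, lost after GC correction) and Daam2 (-0.23). The response to CK666 differed between the cell types at 4 sums, all higher in MSCs, namely Fhod1 (0.27 on the log2 scale), Inf2 (0.24), Fmn2 (0.22) and Fhod3 (0.21), against 9.67% higher and 7.34% lower of all genes. Only 0 or 1 of the 10 sums passed as higher here without CK666 replicate 1 or 2 or control replicate 1 or 2 of MSCs, CK666 replicate 3 of NIH 3T3 cells or control replicate 1 of NIH 3T3 cells. In control cells, 4 formin sums were higher in MSCs by log2 differences, Fhod3 (1.13), Diaph1 (0.80), Diaph3 (0.36) and Daam1 (0.24), and 4 in NIH 3T3 cells, Daam2 (-1.22), Fmnl2 (-0.36), Fmn2 (-0.24) and Fmn1 (-0.15), against 34.2% higher and 31.1% lower in MSCs of all genes.

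**Figure D5:**
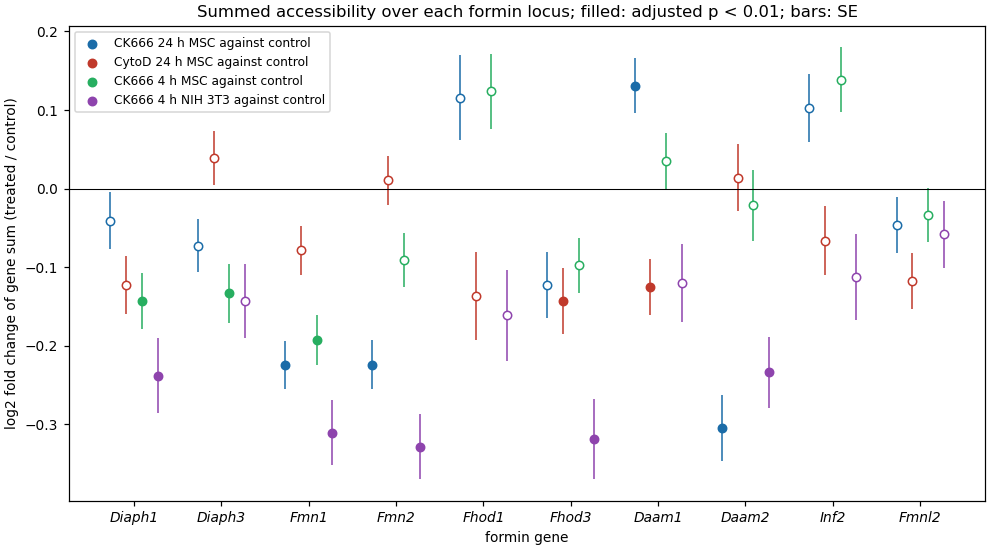
Log2 fold change of the summed counts of each formin for 4 treated against control comparisons. Points are edgeR estimates, bars their SE, and filled points passed an adjusted p under 0.01. All values lie between -0.33 and 0.14. Diaph1, Diaph3, Fmn1, Fmn2, Fhod3, Daam2 and Fmnl2 lie below 0 in each CK666 comparison, though many of these values did not pass. With total-count scaling, Daam2 in MSCs at 4 h and Fmnl2 in NIH 3T3 cells lay above 0.

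Windows were compared between times and cell types by counting those called or passed in the same direction. Of 12 formin windows called higher with CK666 in MSCs at 24 h, 11 overlapped a tested window at 4 h, and 1 of these passed in the same direction. Over all windows called higher at 24 h, 31.9% of the 4820 that overlapped a tested window passed as higher at 4 h. All 6 formin windows called lower at 24 h overlapped a window at 4 h, and 2 passed in the same direction, beside 34.3% of 3105 over all windows. Of these 2, 1, in Diaph3, was also called. Conversely, 2 of the 7 formin windows called lower at 4 h passed as lower at 24 h, as 24.3% did over all windows, and the 1 window called higher, in Fhod1, passed as higher, as did 58.8%. Between MSCs and NIH 3T3 cells at 4 h, the 7 and 16 formin windows called lower had 0 in common, and the 1 and 5 called higher also had 0. Over all windows, the 84 called lower in both cell types were 6.39% of those in MSCs and 1.52% of those in NIH 3T3 cells, and the 398 called higher in both were 22% and 6.39%. Whether the formin windows differ from all windows in these counts was not tested.

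Motifs were counted in the central 300 bases of each window, on both strands, as a description of letters and not of bound factors. Among the 13 formin windows that lost with CytoD, 9 held the TEAD motif GGAATG and 7 the AP-1 motif TGANTCA, while 19.9% and 21% of all 24 h windows did. Over all windows called lower with CytoD the shares were 35.9% and 50.5%, so that the AP-1 count of the formins was near that of all losses. Of the 7 that gained with CytoD, 1 held the TEAD and 0 the AP-1 motif, against 15.8% and 8.8% of all gains. CK666 at 24 h gave TEAD matches in 4 of 6 losses and 3 of 12 gains, AP-1 matches in 4 of 6 and 4 of 12, and RUNX matches (TGTGGT, 27.7% of all windows) in 4 of 6 and 1 of 12. Over all windows called lower with CK666 these shares were 33.2%, 36.8% and 34.1%, and over all called higher they were 17.9%, 23.5% and 29.1%. At 4 h AP-1 letters were present in 11 of the 16 windows that lost in NIH 3T3 cells and in 3 of the 7 that lost in MSCs, beside 54.4% and 29.4% of all windows that lost there and 28.7% of all 4 h windows. The C/EBP motif TTNNGCAA was in 3 of the 13 CytoD losses, in 14.2% of all windows and in 11.7% of all CytoD losses. A CArG box was found in the Fmn2 window chr1:174640881-174641426 and in its 4 h neighbor chr1:174642283-174642819, and in 1.55% of all windows at 24 h and 1.63% at 4 h. Of all windows called lower it was in 3.11% with CytoD and in 8.9% with CK666 in MSCs at 4 h. Over all 655 formin windows the shares were 22% for TEAD, 23.4% for AP-1, 25.3% for RUNX, 15.3% for C/EBP and 1.07% for the CArG box, near those of all windows. Among RefSeq promoters, the TEAD motif was in 2 of 8 formins, Fmn1 and Inf2, and in 14.6% of 27025.

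3 related lists were measured as gene sums. Of 4 other formins, Diaph2, Fmnl1, Fmnl3 and Grid2ip, Fmnl3 fell with CK666 at 24 h (log2 fold change -0.22, edgeR adjusted p = 0.00434), Diaph2 rose with CytoD (log2 fold change 0.16, edgeR adjusted p = 0.00321) and fell in NIH 3T3 cells (log2 fold change -0.22, edgeR adjusted p = 0.00273), while in MSCs at 4 h the lowest of their edgeR adjusted p was 0.0219. Among 12 GTPases and partners that bind formins, the 3 that passed with CK666 at 24 h all fell, namely Rhoc, Rhob and Rock1, the last a kinase that acts on myosin (log2 fold change -0.29, edgeR adjusted p = 0.00404). With CytoD 2 rose, Rhod (log2 fold change 0.33, edgeR adjusted p = 0.00698) and Src, and 3 fell, Rock1 (log2 fold change -0.38, edgeR adjusted p = 0.000274), Baiap2 and Rhob. At 4 h Rhob fell in MSCs (log2 fold change -0.46, edgeR adjusted p = 1.01e-11) and Baiap2 rose, while in NIH 3T3 cells Rhod rose (log2 fold change 0.41, edgeR adjusted p = 0.00117) and Rhoc fell. Over all genes 8.46% passed as lower and 6.01% as higher with CK666 at 24 h, 10.1% and 8.17% with CytoD, 5.34% and 4.75% in MSCs at 4 h and 17% and 13.3% in NIH 3T3 cells. Rhob is a stress-responsive small GTPase, and its fall was larger than that of any of the 10 formins in MSCs at 4 h. The median log2 fold changes of this list were -0.09 with CK666 at 24 h, -0.14 with CytoD, -0.02 in MSCs at 4 h and -0.04 in NIH 3T3 cells, beside medians between 0.00 and 0.01 over all genes. Of 8 other nucleators of unbranched actin and profilins, the lowest edgeR adjusted p with CK666 was 0.0575 at 24 h, 0.0212 in MSCs at 4 h and 0.0769 in NIH 3T3 cells, and 2 fell with CytoD, Spire1 (log2 fold change -0.27, edgeR adjusted p = 0.00117) and Pfn4, which had a mean of 16.8 normalized counts. The median of the 10 formins was -0.06 with CK666 at 24 h, -0.10 with CytoD, -0.06 in MSCs at 4 h and -0.20 in NIH 3T3 cells.

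Fmn2 and Fhod3 were the formins with the largest change of sum in a treated comparison. Both changes were with CK666 in NIH 3T3 cells at 4 h (log2 fold changes -0.33 and -0.32). For these 2 formins, the genes with the most similar sums over the 9 MSC libraries at 24 h were sought. They were Tasp1 (Pearson r = 0.988), Rras2 (0.986) and Mgp (0.984) for Fmn2, and Gdnf (0.965), Vps13b (0.961) and Hepacam2 (0.946) for Fhod3, none of which shared a window with its formin. These values are a description, as the 9 libraries fall into 3 groups.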

How the data were processed

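Chromatin accessibility was measured by ATAC-seq (Omni-ATAC) on 50000 cells per library. The authors aligned the reads with bowtie2 through PEPATAC, called peaks with MACS2, merged the peaks of all replicates and deposited raw read counts per region in 1 table for 24 h and 1 for 4 h, so the values used here are deposited counts with no normalization. The build was mm10 per the submitters' processing notes, tool versions were not given in the sources used here, and 0 regions ran past a chromosome end of GRCm38. At 24 h 60.73% of protein-coding genes' TSSs lay in a region, and 15.68% did when the regions were displaced along the chromosome. Of 30 libraries, 21 were used, and 9 columns of siRNA-treated cells were not used. Regions were 500 to 9661 bp long at 24 h and 500 to 11728 bp at 4 h, and reads that peaks of neighboring sites share cannot be split.

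Counts were filtered with filterByExpr, scaled by TMM and tested with the quasi-likelihood test of edgeR 4.0.16 in R 4.3.3, with Benjamini-Hochberg adjustment over all windows of a fit. The 9 MSC libraries at 24 h shared 1 fit, MSCs and NIH 3T3 cells at 4 h had 1 each, and all 12 libraries at 4 h were fitted jointly for the interaction and for the control cells. Normalized counts are scaled within each fit and are not comparable between fits. Counts of all windows of a gene were also summed and tested over all genes. Scripts were tested on simulated counts. Python 3.11.15, pandas 2.3.3, numpy 2.4.6, pysam 0.24.0 and matplotlib 3.10.9 were used for assignment, sequences and plots, and the alternatives used DESeq2 1.42.0.

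The members and lists were chosen with earlier results of these data known. Windows described were those over the most 5′ TSS, the 4 largest called gains and losses per comparison where the normalized counts averaged 20 or more, and those called alike at both times or in both cell types. Windows below that mean, neighbors and overlaps of those windows, and the further called windows of Diaph1, Daam2, Fmnl2, Fmn2 and Inf2 were chosen after their values were seen. The alternatives were other scalings, no filter, DESeq2, a replicate block, removal of a GC trend, a narrower assignment, 2 groups per fit and leaving out each library. Same-numbered libraries did not deviate together, with correlations of -0.0718 to 0.0278, so the numbers were not taken as pairs. With 3 libraries per group, and 14071301 counts in the shallowest, windows of few counts have wide errors.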

Additional observations from a re-analysis of the deposited data

Results flagged for a closer look

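The CK666 response at 4 h differed between MSCs and NIH 3T3 cells, by the interaction term over 12 libraries, at 11 formin windows and 4 gene sums. Values are log2 differences of the response, MSCs minus NIH 3T3 cells, with the log2 fold change in each cell type after them. Their signs depend on the NIH 3T3 library labels. By DESeq2, the balance of gains and losses over all NIH 3T3 windows was opposite to that in the paper. The windows called lower numbered 4827, which is the paper's count of increased regions, and the cause was not tested. No group had more than 3 libraries, so single libraries were not tested for distance from their group.

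Windows with the higher response in MSCs were in introns. They were chr2:113371411-113372096 in Fmn1 at 2.04 (0.16 and -1.84), chr2:52918047-52918597 in Fmnl2 at 1.77 (0.48 and -1.26) and chr14:86697797-86698351 in Diaph3 at 1.64 (0.26 and -1.35). The Fmn1 and the Fmnl2 call were each lost with 9 of 12 libraries left out in turn, with total-count scaling and with the replicate block, and the Diaph3 call without CK666 replicate 2 or control replicate 3 of NIH 3T3 cells. In Fmn2, chr1:174599963-174601112 differed by 1.3 (0.24 and -1.04). Fmnl2 held another pair, chr2:53070581-53071102 at 1.28 (0.94 and -0.32) and chr2:53080832-53081372 at 1.2 (0.19 and -0.99). The remaining windows were chr14:86788650-86789318 in Diaph3 at 1.18 (0.11 and -1.03) and chr2:113503539-113504058 in Fmn1 at 1.1 (0.04 and -1.03).

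At 3 windows the response was lower in MSCs. Upstream of Daam1, chr12:71788833-71789410 differed by -2.16 (-1.06 and 1.14), and this call was lost without CK666 replicate 3 or control replicate 1 of MSCs, or CK666 replicate 1 or control replicate 1 or 2 of NIH 3T3 cells. Inside Daam1, chr12:71987105-71987625 differed by -1.28 (-0.15 and 1.15). The start of Fmn2, chr1:174501584-174504148, differed by -1.12 (-0.60 and 0.55).

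Among the sums of all windows of a gene, the response was higher in MSCs for Fhod1 by 0.27, Inf2 by 0.24, Fmn2 by 0.22 and Fhod3 by 0.21. With total-count scaling 1 of these sums still passed.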

How the results depend on the processing

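Direction and call held in every alternative for 33 of 53 results on named windows and for 21 of 32 gene sums that passed. Under total-count scaling, NIH 3T3 cells had 9 formin windows called higher and 8 lower, in place of 5 and 16, the interaction 4 windows and 1 gene sum higher, in place of 8 and 4, and MSCs at 4 h 1 gene sum higher. With the GC trend removed, NIH 3T3 cells had 8 higher and 7 lower windows (9 lower with the replicate block as well), and MSCs at 4 h 1 lower gene sum in place of 3. DESeq2 called 3 NIH 3T3 windows higher. The 2 gene sums lower with CytoD became 0 with RLE, with total counts, with the GC trend removed and with 2 groups only, and 1 with DESeq2, with the narrower assignment and with the GC trend and the replicate block together. The gene sum higher with CK666 at 24 h was 0 with the narrower assignment. The replicate block left 5 interaction windows higher, as it did with the GC trend removed, and changed no other count of calls by over 1.5 times. The causes were not tested.

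Signs turned only for gene sums that had not passed. With the GC trend removed, Fmn2 with CytoD was at -0.0013, or -0.0012 with the replicate block. Daam2 in MSCs at 4 h was 0.0019 with total counts. Fmnl2 in NIH 3T3 cells was 0.0261 with total counts, 0.0238 with GC and 0.0232 with GC and the replicate block, and its interaction -0.0367, -0.0145 and -0.0145. The Diaph3 interaction was 0.0246 with RLE, 0.0249 with DESeq2 and 0.0385 with the narrower assignment. Fhod1 in control cells was -0.0097 with RLE, -0.0251 with total counts, -0.0096 with DESeq2 and -0.2011 with the narrower assignment (edgeR adjusted p = 0.000489).

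With 1 library left out, windows lower with CK666 at 24 h numbered 4 to 10 and gene sums higher 0 to 1. With CytoD windows higher numbered 4 to 6 and gene sums lower 0 to 3. In MSCs at 4 h, 1 to 2 windows were higher and 4 to 6 lower, and 0 to 1 gene sums higher and 1 to 2 lower. In NIH 3T3 cells 3 to 7 windows were higher. For the interaction, 3 to 14 windows were higher, 1 to 5 lower, 0 to 1 at a TSS, and 0 to 5 gene sums higher. Log2 values of sums that turned sign ran from -0.0182 to 0.0353 for Daam2 and -0.008 to 0.0277 for Fmn2 with CytoD, -0.0201 to 0.0694 for Fhod3 between inhibitors, -0.0519 to 0.0058 for Daam2 in MSCs at 4 h, -0.0267 to 0.0446 for Diaph3 and -0.0189 to 0.0654 for Fmnl2 in the interaction, and -0.0105 to 0.0213 for Fhod1 in control cells.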
